A study of Mus musculus with 5 samples.

Results

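The genes described here had lower signals in CD11A+ than in CD11A- hematopoietic stem cells (HSCs) of mouse bone marrow on both days on which the 2 subfractions were sorted together. They numbered 92 of 18193 genes measured, or 0.506%. They were chosen by their measured values on all 5 arrays of the study, so every difference between CD11A+ and CD11A- HSCs below is a description of the choice and carries no test. A gene was kept where CD11A+ minus CD11A- was -0.8 or less on the log2 scale on each of the 2 days, where both CD11A+ arrays lay below all 3 CD11A- arrays, and where the mean of the CD11A- arrays was at least 6. On this scale a difference of 1 is a 2-fold change in signal, and all differences are CD11A+ minus CD11A-.

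HSCs are rare marrow cells that renew themselves and give rise to all blood lineages, and in adult mice most of them rest outside the cell cycle. CD11A is integrin alpha L, encoded by Itgal. As the alpha chain of the integrin LFA-1 it lets leukocytes hold on to cells that carry ICAM proteins. Resting HSCs are known for a set of transcripts that includes Vwf, Hoxb5 and Neo1, several imprinted genes such as Meg3, and inhibitors of cytokine and growth factor signalling.

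The study asked whether CD11A divides phenotypic HSCs, and RNA was measured on 2 arrays of CD11A+ HSCs and 3 arrays of CD11A- HSCs. All mice were male C57/Bl6 without a transgene or treatment named. Both subfractions were lineage-negative cells positive for KIT, SCA-1, CD27, CD150 and EPCR and negative for FLK2 and CD34, they differed in the CD11A gate, and both were sorted a second time for purity. Day A gave CD11A+ replicate 1 (1274 cells) and CD11A- replicate 2 (1300 cells) from mice of 8 to 12 weeks. Day B gave CD11A+ replicate 2 (2293 cells) and CD11A- replicate 3 (1803 cells) from mice of 10 weeks. CD11A- replicate 1 (1011 cells) came from mice of 6 weeks on a day of its own, day C, with no CD11A+ partner. Marrow of 1 to 2 mice went into each experiment, so an array can hold pooled animals, and the labels do not say whether the 2 subfractions of a day came from the same animals. The RNA was amplified in 2 cycles. In such bulk samples, fewer cells that carry a transcript and less of it per cell cannot be told apart.

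The arrays differed in ways that bear on every value below. Itgal itself, the targeted marker, had 8.49 and 5.67 in CD11A+ replicates 1 and 2, against 5.15, 5.43 and 5.27 in CD11A- replicates 1, 2 and 3, so its separation was narrow on day B. CD11A+ replicate 1 stood apart from the other 4 arrays. Over 49 mitosis genes it had a mean of 9.17, while CD11A+ replicate 2 had 6.51. CD11A- replicates 1, 2 and 3 had 6.8, 7.31 and 5.85. The median difference of the mitosis genes was 1.93 on day A and 0.63 on day B, against 0.02 and -0.03 over all genes. These genes were thus higher in CD11A+ HSCs on both days, and by more on day A. Cd48, a surface protein that resting HSCs lack, had 9.70 on CD11A+ replicate 1, against 3.66 in CD11A+ replicate 2 and 3.65 to 5.13 in CD11A- HSCs. Of the genes of the gate that HSCs carry, Kit, Slamf1, Cd27 and Procr were measured and present on all 5 arrays at 7.91 or more, with Procr lowest on CD11A+ replicate 1 (10.33) and Slamf1 (7.91) and Cd27 (8.70) lowest on CD11A+ replicate 2. Cd34 and Flt3, whose proteins the gate excludes, were also measured at 7.68 or more on all 5 arrays. Cd34 had 11.07 and 9.87 in CD11A+ replicates 1 and 2, against 9.28, 9.76 and 9.35 in CD11A- replicates 1, 2 and 3. Flt3 had 9.38 and 8.79, against 8.13, 8.83 and 7.68, so both genes were higher in CD11A+ HSCs on both days. The mean of 21 granulocyte and macrophage genes was 7.93 and 6.22 in CD11A+ HSCs, against 5.42, 7.0 and 5.44 in CD11A- HSCs, so both arrays of day A were high. CD11A+ replicate 1 also had the highest mean over the lists of B cells (6.33, against 5.29 in CD11A+ replicate 2 and 5.23 to 5.40 in CD11A- HSCs), T and NK cells (5.43, against 4.84 and 4.87 to 5.04), erythroid cells (5.95, against 5.85 and 5.75 to 5.82) and stromal cells (6.17, against 5.79 and 5.64 to 5.98). Ighm, the B cell heavy chain gene, had 13.33 on it and Nkg7, a gene of cytotoxic cells, 10.29, while the other 4 arrays had at most 6.96 and 6.99. The excess of the 3′ over the 5′ control probes, a sign of RNA amplification, was lowest on CD11A+ replicate 1 for both Gapdh (1.91, against 2.76 in CD11A+ replicate 2 and 2.22 to 2.80 in CD11A- HSCs) and beta-actin (1.94, against 2.09 and 1.97 to 2.51). The part of these differences in the losses was not tested. Genes are given by array or by day, and the day B values do not use CD11A+ replicate 1.

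Of the 18193 genes, 10179 reached the CD11A- mean of 6, and 1883 (10.4%) had both CD11A+ arrays below every CD11A- array. The day A difference reached -0.8 or less in 922 genes and the day B difference in 323, and both did in 115. All conditions together left the 92 genes, and the same rule turned round left 45 genes that were higher in CD11A+ HSCs. A fit of CD11A+ against CD11A- HSCs over all probesets, a probeset being the group of probes that reads 1 transcript, called 0 of 45037 (0%) at an adjusted p of 0.05 in limma. At an unadjusted p under 0.05 it placed 656 higher and 1261 lower in CD11A+ HSCs. When CD11A+ replicate 2 was left out, limma called 20 probesets at the adjusted threshold, 15 higher and 5 lower in CD11A+ HSCs. That fit holds a single CD11A+ array, which is assumed to vary like the CD11A- arrays. Replicates of a group came from different sort days, so the spread between them also holds that of the days.

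In CD11A+ HSCs the 92 genes lay nearer to the level of an average probeset than in CD11A- HSCs. CD11A+ replicates 1 and 2 had medians of 5.98 and 6.78, against 7.99, 7.88 and 7.95 in CD11A- replicates 1, 2 and 3. The median over all probesets was between 5.55 and 5.62 on every array. In CD11A+ replicates 1 and 2, 35 and 19 of the 92 lay below that median, and 17 did so on both, among them Ntf5, Plagl1, Kdf1, Stxbp6, Pygm, Ccn3 and Il4. In each CD11A- array 1 gene lay below it. In CD11A- HSCs, 9 genes had a mean of 10 or more, 62 had 7 to under 10 and 21 had less than 7.

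**Figure D1:**
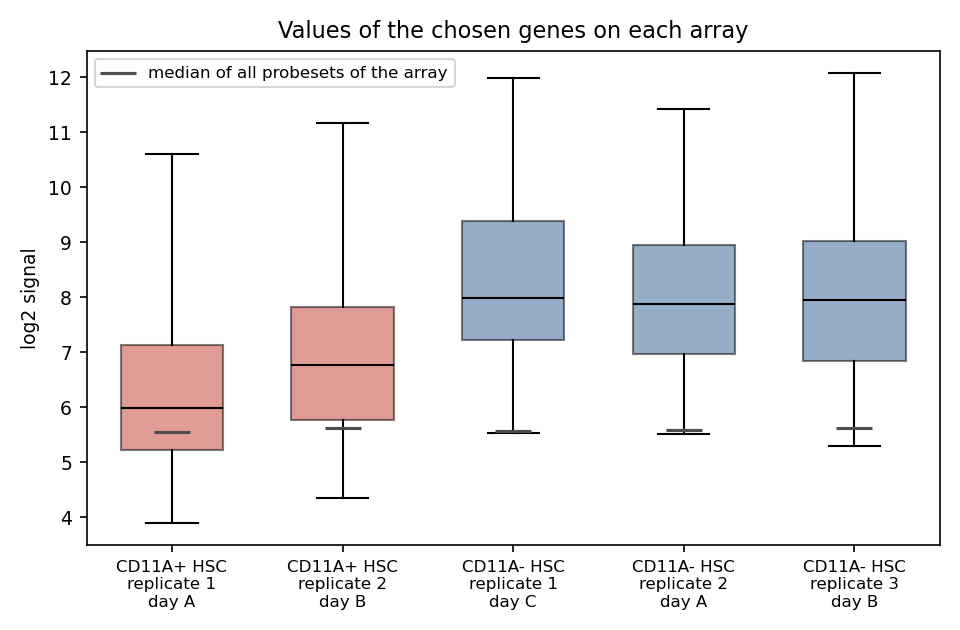
Log2 signal of the 92 genes on each of the 5 arrays, CD11A+ in red and CD11A- in blue; boxes span the quartiles with the median as a line, whiskers reach the lowest and highest gene, and the short grey bar is the median of all probesets of that array. The CD11A+ medians are 5.98 and 6.78 and the CD11A- medians 7.88 to 7.99, while the grey bars stay at 5.55 to 5.62.

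The losses were larger on day A than on day B for most of the genes. The median difference was -1.67 on day A (range -4.96 to -0.80) and -1.04 on day B (range -2.19 to -0.81), while over all genes the medians were 0.02 and -0.03. Day A gave the larger loss for 75 genes and day B for 17, and for 23 the day A difference was at least 2 times that of day B. The lowest of the 5 values came from CD11A+ replicate 1 for 73 genes and from CD11A+ replicate 2 for 18. Both losses reached 1 log2 unit for 47 genes, 1.5 for 14 and 2 for 3. The distance between the highest CD11A+ and the lowest CD11A- value ran from 0.06 to 2.19 with a median of 0.80, and for 51 genes it exceeded the whole range of the 3 CD11A- arrays. Over all 92 genes the median difference of the group means was -1.48, and without CD11A+ replicate 1 it was -1.14. Among the CD11A- arrays the genes varied by a median SD of 0.34, compared with 0.24 over all genes with a CD11A- mean of at least 6. Day C, from the youngest mice, was the highest CD11A- array for 37 of the genes (40.2%) and for 29.6% of all genes.

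**Figure D2:**
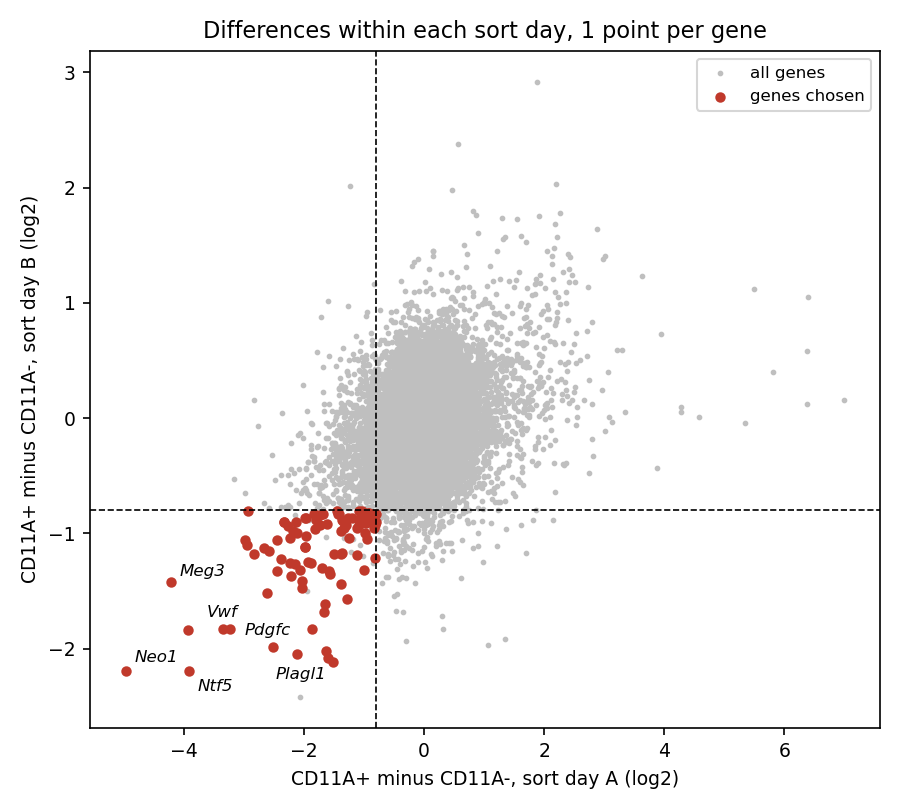
CD11A+ minus CD11A- on day A (x axis, log2) and on day B (y axis, log2), 1 point per gene, with the chosen genes in red, all others in grey and dashed lines at -0.8. The red points reach -4.96 on day A and -2.19 on day B, and grey points in the lower left corner failed one of the other conditions.

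The gene with the largest loss was Neo1, which encodes neogenin, a receptor for netrins and repulsive guidance molecules. Its signal was 5.32 and 8.47 in CD11A+ replicates 1 and 2, against 10.31, 10.28 and 10.66 in CD11A- replicates 1, 2 and 3, and the following values keep this order. The groups averaged 6.90 ± 2.23 (SD, n = 2) in CD11A+ HSCs and 10.42 ± 0.21 (SD, n = 3) in CD11A- HSCs. The difference was -4.96 on day A and -2.19 on day B. Both CD11A+ arrays were clear of the narrow CD11A- range, but they lay far apart from each other. Ntf5, which encodes the neurotrophin NT-4/5, a ligand of the TrkB receptor, had 3.92 and 4.91 in CD11A+ HSCs, against 7.46, 7.83 and 7.10 in CD11A- HSCs. Its 2.19 units between the groups were the widest separation of the 92 genes. Plagl1, an imprinted zinc finger factor linked to cell cycle arrest, had 4.18 and 4.74 in CD11A+ HSCs, against 6.98, 6.30 and 6.79 in CD11A- HSCs. Its losses were nearly alike on both days, at -2.12 and -2.05. Pdgfc, a growth factor that binds the PDGF alpha receptor, had 6.40 and 7.37 in CD11A+ HSCs, against 9.83, 8.91 and 9.36 in CD11A- HSCs, which gave -2.51 on day A and -1.99 on day B.

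The promoters of the leading genes are shown because these genes were lower together and yet start from windows of unlike composition. Neo1, Plagl1 and Pdgfc are among the first 4 genes by the smaller of their losses, and none is shown for Ntf5, the other one. Each sequence holds the 250 bases before the transcript start in RefSeq (GRCm38.p6), read along the strand of the gene, and lies at chr9:59036442-59036691 on the minus strand for Neo1, at chr10:13090582-13090831 on the plus strand for Plagl1 and at chr3:81036166-81036415 on the plus strand for Pdgfc. Capitals mark matches, on either strand, to the 8 motifs that were searched.
Neo1: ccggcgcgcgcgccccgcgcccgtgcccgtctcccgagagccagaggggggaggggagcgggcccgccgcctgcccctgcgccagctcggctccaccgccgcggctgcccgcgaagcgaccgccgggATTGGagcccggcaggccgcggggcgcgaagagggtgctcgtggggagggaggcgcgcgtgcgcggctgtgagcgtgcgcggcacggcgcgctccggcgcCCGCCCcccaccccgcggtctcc
Plagl1: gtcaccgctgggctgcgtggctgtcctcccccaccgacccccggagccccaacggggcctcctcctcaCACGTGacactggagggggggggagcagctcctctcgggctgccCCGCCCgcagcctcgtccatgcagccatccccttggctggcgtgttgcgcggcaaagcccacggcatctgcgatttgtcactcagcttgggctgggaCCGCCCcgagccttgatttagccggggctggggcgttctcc
Pdgfc: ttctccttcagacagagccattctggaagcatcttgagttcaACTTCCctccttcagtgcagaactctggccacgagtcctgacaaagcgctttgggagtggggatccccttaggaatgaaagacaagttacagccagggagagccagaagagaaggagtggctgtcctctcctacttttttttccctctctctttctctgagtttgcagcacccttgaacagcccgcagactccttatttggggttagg

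The capitals in the Neo1 window are the CCAAT box, known to bind NF-Y, and the GC box of Sp1 factors, both in reverse. Those in the Plagl1 window are the E-box and 2 reversed GC boxes. Those in the Pdgfc window are the core bound by ETS factors, in reverse. The full promoters of 300 bases, which reach 50 bases past the start, were 82.7% GC with a CpG observed over expected ratio of 1.05 for Neo1, 70.7% and 0.70 for Plagl1 and 55.0% and 0.35 for Pdgfc.

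Below the first 4 genes the losses remained deep on both days. The values of the first 20 genes with an established symbol appear in the plot of single arrays, ordered by the smaller of the day losses, which ran from -2.19 for Neo1 to -1.35 for Il4. CD11A+ replicate 1 was the lowest array for 16 of these 20 genes, and CD11A+ replicate 2 for the other 4, Calml4, Stxbp6, Camk2n1 and Il4.

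**Figure D3:**
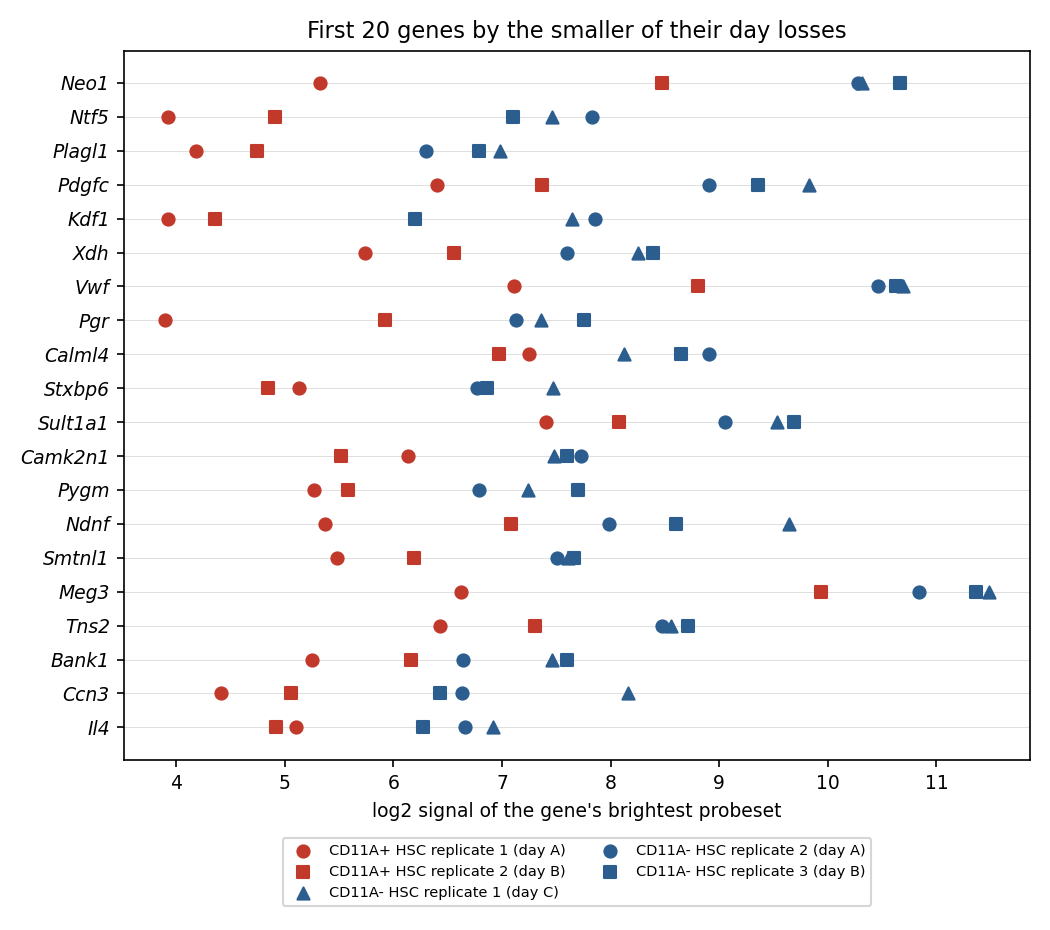
Log2 signal of the brightest probeset of the first 20 genes, ranked by the smaller of the day losses, on each array; red marks CD11A+ and blue CD11A- HSCs, with circles for day A, squares for day B and triangles for day C. All red marks lie left of all blue marks in every row, as the rule requires, and the gap is widest for Ntf5 (2.19) and narrowest for Bank1 (0.48).

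Secreted proteins made up 20 of the 92 genes, the largest of the groups by role, with median differences of -2.19 on day A and -1.14 on day B. Roles were assigned to the 92 genes only, so no share of secreted proteins over all genes can be set beside this count. Vwf, the platelet-binding glycoprotein of plasma that also marks platelet-biased HSCs, had 7.11 and 8.80 in CD11A+ HSCs, against 10.69, 10.46 and 10.63 in CD11A- HSCs. It was nearly constant over the 3 CD11A- arrays (10.59 ± 0.12, SD, n = 3) and lower on both CD11A+ arrays. Vwf is also a gene of endothelial cells and megakaryocytes. The mean of 23 endothelial genes was 7.82 and 6.56 in CD11A+ HSCs, against 6.97, 7.45 and 7.13 in CD11A- HSCs, and that of 17 megakaryocyte and platelet genes was 7.58 and 7.04, against 7.11, 7.33 and 7.24. Day A thus had both means higher in CD11A+ HSCs, and day B had both lower. On day B 19 of the 23 endothelial and 12 of the 17 megakaryocyte genes were lower, against 9756 of all 18193 genes. Vwf is itself in both lists, so its own loss is part of these means and counts. The part of endothelial cells and megakaryocytes in the loss of Vwf was not tested.

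Insulin-like growth factors, which drive cell growth through the Igf1 receptor, were both in the group. Igf1 had 5.79 and 7.19 in CD11A+ HSCs, against 9.41, 7.94 and 8.46 in CD11A- HSCs. Igf2, an imprinted gene, had 4.99 and 6.88, against a tight 7.85, 7.98 and 7.94, and its loss was steep on day A (-2.99) and modest on day B (-1.06). Kazald1, related to the binding proteins of these factors, had 6.13 and 8.15, against 8.96, 8.72 and 9.30. All 3 genes were lower by more on day A than on day B.

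Other ligands were cytokines and growth factors of several families. Il4, the cytokine of type 2 immunity, had 5.10 and 4.92 in CD11A+ HSCs, against 6.92, 6.66 and 6.27 in CD11A- HSCs. Tnfsf11, or RANKL, the ligand that drives osteoclast formation, had 3.97 and 5.14, against 7.43, 6.42 and 6.47. Ccn3, a matricellular protein, had 4.41 and 5.06, against 8.16, 6.63 and 6.43, and Hgf, the ligand of the Met receptor, had 6.05 and 6.62, against 8.27, 6.97 and 7.44. For Il4, Tnfsf11, Ccn3 and Hgf alike, the day C array was the highest of the CD11A- arrays. The day losses were closest for Hgf (-0.92 and -0.82) and Il4 (-1.56 and -1.35). Ndnf, a secreted neurotrophic factor, had 5.37 and 7.08, against 9.64, 7.98 and 8.60, and the CD11A- arrays spread widely here too.

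Extracellular chaperones, binding proteins and proteases filled the rest of the secreted group. Clu, the chaperone clusterin, had 6.47 and 7.18 in CD11A+ HSCs, against 9.05, 9.13 and 8.31 in CD11A- HSCs. Fstl1, a follistatin-like protein, was among the brighter and steadier members, at 8.31 and 8.88, against 10.02, 9.51 and 9.75. C1ra, a protease of the complement C1 complex, had 7.34 and 7.38, against 8.05, 8.17 and 8.26, so a small loss (-0.83 and -0.88) stood on arrays that hardly varied. C1qtnf4, Wfdc2, Cpxm1, Adamtsl5, Htra3 and Islr had day A differences of -1.09 to -2.24 and day B differences of -0.83 to -1.33.

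Membrane proteins were 16 genes, with median differences of -1.42 on day A and -0.95 on day B, and after Neo1 their losses were moderate. Abcg3, a member of the ABCG family of transporters found in rodents, had 6.77 and 7.76 in CD11A+ HSCs, against 8.73, 8.65 and 9.02 in CD11A- HSCs. Tnfrsf25, a death receptor of the TNF receptor family, had 4.84 and 5.25, against 6.61, 6.77 and 6.50. Clec7a, or dectin-1, the receptor for fungal beta-glucan, had 5.46 and 6.43, against 7.26, 7.59 and 7.33. Clec7a is also a gene of macrophages and neutrophils, and the part of such cells in its values was not tested. Fzd8, a Wnt receptor, had 5.80 and 6.10, against 6.68, 7.06 and 6.97, and Npr2, the receptor of C-type natriuretic peptide, had 8.29 and 8.74, against 9.38, 9.13 and 9.69. Channels and transporters of ions and small molecules were Cftr, Clcn2, Kcnk6, Slc12a5 and Slc16a9, which had day A differences of -0.80 to -1.84 and day B differences of -0.83 to -1.18. Another 4, Ecscr, Evc2, Ptgfrn and Smagp, had -1.0 to -2.11 on day A and -0.95 to -1.32 on day B. Dsg2, a desmosomal cadherin, had 7.10 and 7.19, against 8.09, 8.55 and 8.00.

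Nuclear proteins were 10 genes, with median differences of -2.19 on day A and -1.20 on day B. Nuclear receptors, which are activated by lipid-soluble ligands, were 3 of them. Pgr, the progesterone receptor, had 3.90 and 5.92 in CD11A+ HSCs, against 7.36, 7.13 and 7.75 in CD11A- HSCs. Rarb, a retinoic acid receptor, had 4.26 and 5.54, against 6.78, 7.21 and 6.64. Vdr, the vitamin D receptor, was brighter, with 8.63 and 8.13, against 10.03, 9.75 and 9.32, and its losses were alike on both days (-1.12 and -1.19). Cyp26b1, the enzyme that degrades retinoic acid, had 5.82 and 7.69, against 7.78, 8.66 and 8.87, and the groups were only 0.09 apart, with day C the lowest of the CD11A- arrays.

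The other nuclear genes included factors known from HSC biology. Gfi1, a zinc finger repressor that restrains HSC proliferation, had 7.66 and 9.52 in CD11A+ HSCs, against 10.36, 9.72 and 10.84 in CD11A- HSCs. Its day B value in CD11A+ HSCs lay 0.20 below the day A value in CD11A- HSCs, so the separation across days was thin. Hoxb5, a homeobox factor used as a reporter of long-term HSCs, had 5.75 and 7.69, against 8.47, 8.02 and 8.63. Runx1t1, a corepressor known as the partner of Runx1 in a leukemic fusion, had 5.27 and 6.68, against 7.96, 7.66 and 7.90. Mysm1, a histone H2A deubiquitinase needed by HSCs, had 7.60 and 7.63, against 8.56, 8.41 and 8.84, and it was lower by more on day B (-1.21) than on day A (-0.81). Hivep3, a zinc finger protein, had losses of -0.96 and -0.91, and Zfp612, a zinc finger gene, -2.94 and -0.81.

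Signalling and adaptor proteins were 15 genes, with median differences of -1.66 on day A and -1.17 on day B, and several of them dampen a pathway. Socs2, an inhibitor of JAK-STAT signalling, had 8.71 and 9.36 in CD11A+ HSCs, against 10.86, 10.07 and 10.53 in CD11A- HSCs. Pik3r1, the regulatory p85 alpha subunit of PI3 kinase, had 8.51 and 10.17, against 10.69, 10.50 and 11.29. Camk2n1, an inhibitor of the calcium-dependent kinase CaMKII, had 6.13 and 5.52, against 7.48, 7.73 and 7.60, and Calml4, a calmodulin-like protein, had 7.25 and 6.97, against 8.12, 8.91 and 8.65. Unlike most of the 92 genes, Camk2n1 had the larger loss on day B (-2.08, against -1.60 on day A). The losses of Calml4 were nearly alike on days A and B (-1.66 and -1.68). Gnaz and Gnai1 encode alpha subunits of inhibitory G proteins. Gnaz had 5.27 and 5.62, against 7.12, 6.97 and 6.92, and Gnai1 had 5.92 and 6.99, against 8.41, 7.29 and 7.87. Tns2, a focal adhesion protein, had 6.43 and 7.30, against 8.56, 8.47 and 8.71, and Bank1, a scaffold of B cell receptor signalling, had 5.25 and 6.16, against 7.46, 6.64 and 7.60. Stxbp6, which binds SNARE proteins of vesicle fusion, had 5.13 and 4.84, against 7.47, 6.77 and 6.86. Smtnl1, a smoothelin-like muscle protein, had 5.48 and 6.19, against 7.61, 7.51 and 7.66. The remaining 5 were Dixdc1, Phactr1, Plcl1, Pkp2 and Sgsm1, with day A differences of -0.94 to -2.34 and day B differences of -0.87 to -0.92.

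Enzymes were 14 genes, with median differences of -1.35 on day A and -1.0 on day B. Xdh, which makes uric acid from purines, had 5.74 and 6.56 in CD11A+ HSCs, against 8.25, 7.60 and 8.39 in CD11A- HSCs. Gda, guanine deaminase of the same purine breakdown, had 9.07 and 9.67, against 11.14, 10.88 and 10.63. The day B loss was -1.83 for Xdh and -0.96 for Gda. Pygm, the muscle form of glycogen phosphorylase, had 5.27 and 5.58, against 7.24, 6.79 and 7.70, and its day B loss (-2.12) exceeded that of day A (-1.52). Enzymes of detoxification were 4 of the 14. Sult1a1, a sulfotransferase, had 7.40 and 8.08, against 9.53, 9.05 and 9.69. Ephx1, a microsomal epoxide hydrolase, had 7.16 and 6.96, against 8.02, 8.41 and 8.00. The glutathione S-transferases Gstm1 and Gstm7 lost less. Gstm1 had 8.95 and 8.97, against 9.68, 9.98 and 9.78, and Gstm7 had 6.02 and 5.80, against 6.30, 7.10 and 6.61. Fads3, of the fatty acid desaturase family, had 6.63 and 6.38, against a close 8.02, 7.91 and 7.95. Sqor, a mitochondrial enzyme that oxidizes sulfide, had 8.69 on both CD11A+ arrays, against 9.78, 9.64 and 9.74, so arrays within each group lay close together. Pbld1, Mettl24, Mettl7a1 and Mettl7a2 completed the enzymes, with -0.80 to -2.33 on day A and -0.83 to -0.91 on day B.

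A further 10 genes fell in no common role, and their median differences were -1.34 on day A and -0.93 on day B. Kdf1, a regulator of keratinocyte differentiation, had 3.92 and 4.36 in CD11A+ HSCs, against 7.64, 7.86 and 6.20 in CD11A- HSCs. Slfn2 and Slfn5 belong to the Schlafen family, in which Slfn2 is known to keep T cells quiescent. Slfn2 had 7.70 and 8.61, against 9.81, 9.12 and 9.44, and Slfn5 had 5.67 and 5.62, against 6.75, 6.53 and 6.45. Trim14, Bex4, Klhl4, Magee1, Shcbp1l, Rundc1 and Ubl7 were the others, with day A differences of -0.81 to -1.98 and day B differences of -0.82 to -1.12. Ubl7 had the narrowest separation of all, with 5.48 and 5.24, against 5.54, 6.41 and 6.06.

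Among the 92 genes, RefSeq listed 87 as protein coding, 4 as long noncoding RNAs and 1 as a transcribed pseudogene. Meg3, an imprinted noncoding RNA of the Dlk1-Dio3 cluster, was the brightest of the noncoding ones, with 6.62 and 9.94 in CD11A+ HSCs, against 11.48, 10.84 and 11.36 in CD11A- HSCs. Its day A difference (-4.22) was the second largest of that day among all 92, and its day B difference was -1.42. Another 6 genes carry provisional symbols only, with day A differences of -1.39 to -2.45 and day B differences of -0.87 to -1.26, and they are not named.

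Lists of genes drawn from general knowledge were set beside the 92 genes, and since they were drawn with earlier results known, their counts are descriptions. HSC-associated genes were represented by 5 of 56 measured (8.93%), namely Neo1, Vwf, Sult1a1, Socs2 and Hoxb5, where the rule took 0.506% of all genes. In that list 39 of 56 genes (69.6%) had a lower value in CD11A+ HSCs on both days, against 28.0% of all genes, and 21 (37.5%) had both CD11A+ arrays below all CD11A- arrays, against 10.4%. The list's median differences were -0.90 on day A and -0.37 on day B. Several of its well known members had small day B differences and did not meet the rule. Mllt3, a regulator of HSC maintenance, differed by -2.27 on day A and -0.49 on day B, and Mecom, a zinc finger factor needed by HSCs, by -1.22 and -0.16. Hlf and Procr differed by -0.92 and -1.31 on day A and by 0.16 and 0.02 on day B. Hemgn (1.00 and 1.01), Itga2b (1.78 and 0.28) and Ptprm (0.51 and 0.70), also in the list, were higher in CD11A+ HSCs on both days.

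Growth arrest and imprinted genes gave 3 of 38 (7.89%), which were Plagl1, Meg3 and Igf2, with list medians of -0.21 and -0.25. Secreted ligands and matrix gave 6 of 73 (8.22%), namely Ntf5, Pdgfc, Igf1, Igf2, Vwf and Ccn3, with medians of -0.10 and -0.14, close to the 0.02 and -0.03 of all genes. Metabolism, transport and detoxification gave 5 of 50 (10%), which were Sult1a1, Gstm1, Gstm7, Cyp26b1 and Fads3 (medians -0.39 and -0.13). Signalling adaptors and inhibitors gave 2 of 60 (3.33%), Socs2 and Pik3r1, with medians of -0.43 and -0.21. Transcription factors and chromatin regulators gave 2 of 87 (2.3%), Gfi1 and Hoxb5, with medians of -0.27 and -0.16. Receptors and channels gave 1 of 87 (1.15%), Neo1, with medians of -0.07 and -0.11, and adhesion and junction proteins gave 0 of 50, with -0.15 and -0.08. In total 18 of the 92 genes were in one of these lists of 451 measured genes and 74 in none. The lists are incomplete, so a low count does not show that a role is rare among the 92 genes. Dsg2, Fzd8, Npr2, Cftr, Pgr, Rarb and Vdr, for example, are among the 92 genes but in none of these lists. Of the lists of mitosis and of other blood, endothelial and stromal cells, Vwf was the only gene among the 92.

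Genes read by more than 1 probeset allow a look at measurements that did not choose them. The rule used the brightest probeset of each gene, and 49 of the 92 genes had 102 further probesets, while 43 had none. These come from the same 5 RNA samples and so repeat the measurement, not the experiment. Of the 45 further probesets with a CD11A- mean of at least 6, from 25 genes, 40 were lower in CD11A+ HSCs on both days, 2 were higher on both and 3 were mixed. Both differences reached -0.8 or less in 18 of the 45, and in 28 both CD11A+ arrays lay below all CD11A- arrays. Among all 18193 genes, read by their brightest probesets, 28.0% were lower on both days. That share has no floor on signal, and 10179 of these genes reached the CD11A- mean of 6. Both differences reached -0.8 or less in 115 of all 18193 genes, and 10.4% had both CD11A+ arrays below all CD11A- arrays. The medians of the 45 further probesets were -1.24 on day A and -0.89 on day B. The 57 dimmer probesets showed little, with 25 lower and 9 higher on both days, 0 past the threshold and medians of -0.05 and -0.10.

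For 20 of the 25 genes all the brighter further probesets were lower on both days. Some of these differences were very small, as for 1 probeset of Igf1 (-0.06 on day A and -1.61 on day B) and 1 of Gstm1 (-0.06 and -0.01). Pdgfc had -3.36 and -2.14 on its other probeset, at 5.38 and 7.19 in CD11A+ HSCs, against 9.64, 8.74 and 9.33 in CD11A- HSCs. All 3 of Clu differed by -1.77 to -3.31 on day A and by -1.56 to -2.48 on day B. Of the 4 for Neo1, 3 had day A differences of -2.27 to -3.18 and day B differences of -1.38 to -2.18, while the remaining probeset had 0.02 and 0.01, so the probesets of Neo1 disagreed. Of the 5 for Meg3, 4 were lower on both days and the other had 0.11 and -0.06. The only brighter further probeset of Gnaz (0.41 and -1.24), of Htra3 (0.60 and 0.01) and of Mysm1 (-0.03 and 0.45) did not share the loss. Averaging all probesets of a gene before applying the rule left 57 genes, 53 of them among the 92.

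**Figure D4:**
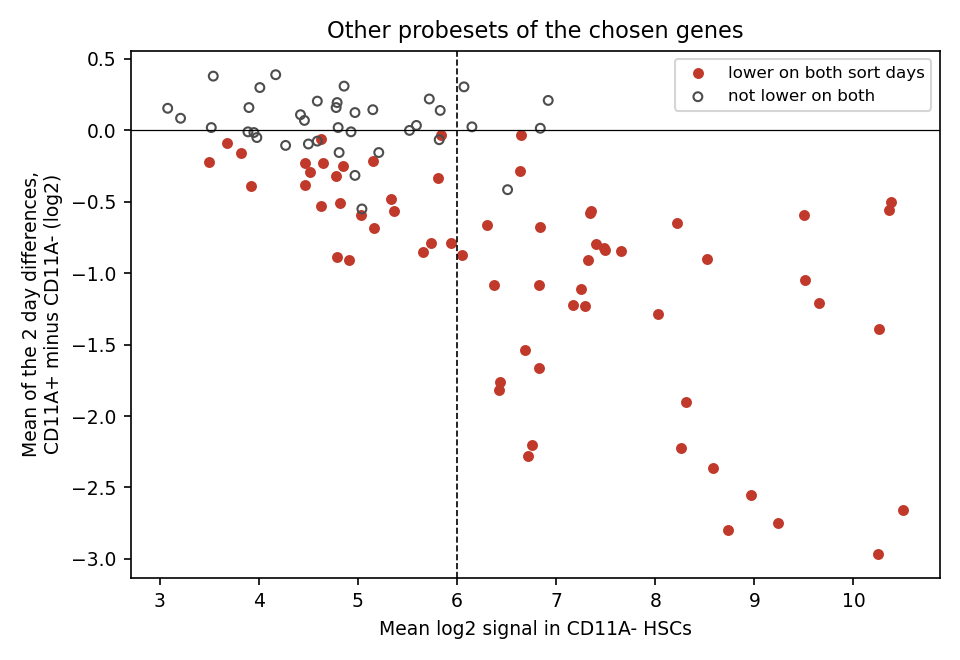
The 102 further probesets of the chosen genes, by mean log2 signal in CD11A- HSCs (x axis) and by the mean of the day A and day B differences, CD11A+ minus CD11A- (y axis, log2); filled red points were lower on both days, open points were not, and the dashed line is at 6. Right of the line 40 of 45 points are filled, and left of it 25 of 57.

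Some probesets can read more than 1 transcript. Of the 92 that chose the genes, 7 are of the s type, shared by several transcripts (Neo1 and Pdgfc among them), and 7 of the x type, which may cross-hybridize (Plagl1, Meg3, Ccn3, Runx1t1 and Clu among them). Gstm1 and Gstm7, and likewise Mettl7a1 and Mettl7a2, are close relatives that lie near each other on their chromosomes, with 3 and 1 measured genes between them, and a loss in one could be read by the probes of the other. Gstm1 and Mettl7a2 are measured by x probesets, and their values are therefore uncertain. A plain probeset of Gstm1 had -1.19 on day A and -0.91 on day B, and a dimmer plain one -0.06 and -0.01. Slfn2 and Slfn5, also relatives, have 3 measured genes between them.

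Promoter windows of 300 bases were found in RefSeq for 72 of the 92 genes, with the first listed taken for the 18 genes that had more than 1. The median CpG observed over expected was 0.49 for the chosen genes, compared with 0.78 for the 8336 genes with a CD11A- mean of at least 6 and 0.67 for all 14452 genes measured that had a window. The share with a ratio of 0.6 or more, typical of CpG islands, was 38.9% (28 of 72), compared with 75.7% and 57.0%. The median GC content was 58.7%, compared with 61.3% and 58.7%. These are descriptions of the windows, and no test was run on them.

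The 8 motifs, searched on both strands, were each present in some of the windows. TATAAA, the TATA box, was in 16.7% (12 of 72) of the chosen windows, compared with 6.5% of those of genes with a CD11A- mean of at least 6 and 9.9% of all measured. TGTGGT, the core bound by Runx factors, was in 5.6%, compared with 12.2% and 13.7%. TGACAG, the core bound by Meis factors, was in 23.6%, compared with 16.5% and 17.6%. GGGCGG, a GC box, was in 54.2%, compared with 66.5% and 54.0%, and CACGTG, an E-box, in 5.6%, compared with 10.6% and 9.0%. CCAAT (38.9%, compared with 38.7% and 38.2%), GGAAGT (27.8%, compared with 29.4% and 26.0%) and GATAAG, known to bind Gata1 and its relatives (4.2%, compared with 4.6% and 5.9%) completed the search. CACGTG reads the same on both strands, and no motif lies within another. A match says only that the letters are in the window.

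**Figure D5:**
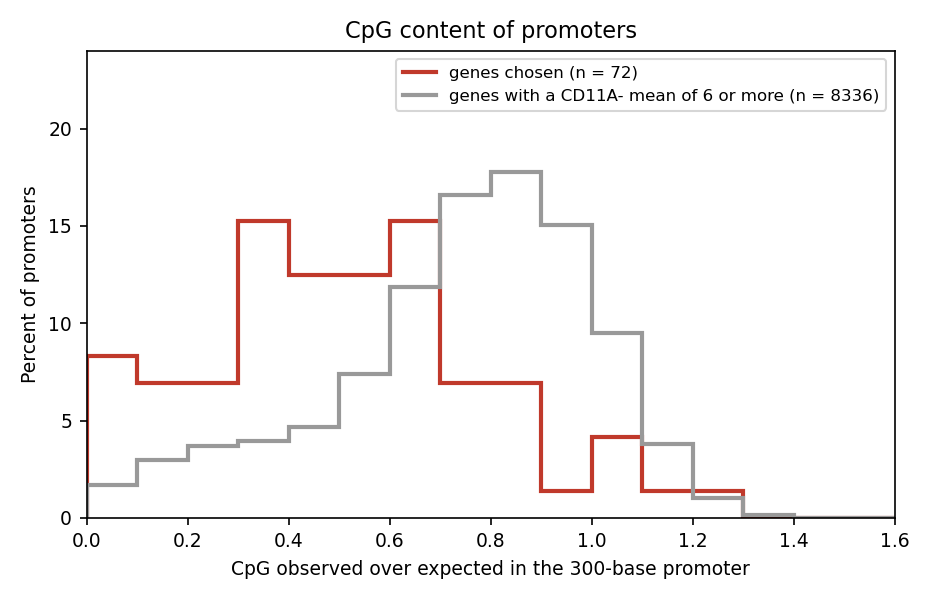
Share of promoters (y axis, percent) by CpG observed over expected in the 300-base window (x axis), for the chosen genes in red (n = 72) and for genes with a CD11A- mean of 6 or more in grey (n = 8336). The red line lies to the left of the grey one, with medians of 0.49 and 0.78.

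The edge of the group is gradual. Gstm1, Mettl7a2 and Clcn2 were just inside the threshold of -0.8, with smaller losses of -0.81, -0.80 and -0.80. H1f2, a linker histone, Enah, a regulator of actin filaments, and Dus2, a tRNA-modifying enzyme, were just outside it, each with -0.78. Mettl7a2 had 8.04 and 8.44 in CD11A+ HSCs, against 9.24, 8.84 and 9.27 in CD11A- HSCs, and Enah had 5.95 and 7.16, against 8.78, 8.53 and 7.94. At -0.6 the rule kept 209 genes and at -1.0 it kept 47.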

How the data were processed

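RNA of double-sorted CD11A+ HSCs (2 arrays) and CD11A- HSCs (3 arrays) was hybridized to Affymetrix whole-genome mouse arrays. The log2 values of each probeset are as deposited. The submitters' processing notes name RMA, of a version not given in the sources used here. The study's methods also describe normalization on the Gene Expression Commons against a large panel of public arrays. The values were given in 2 tables, in which 0 values differed for these arrays, and 40 further columns of other samples were not used. Strong between-array normalization can hide a shift shared by most genes.

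The arrays hold 45101 probesets, of which 64 are controls and were dropped. Of the other 45037, the annotation of the platform gives 1 gene to 34945, several to 932 and none to 9160. RefSeq held 34741 of the single genes by Entrez number, which changed 0 symbols. A gene took the values of its brightest probeset by the mean over the 5 arrays. limma 3.58.1 in R 4.3.3 (lmFit, eBayes, Benjamini-Hochberg over all probesets, no block) served only as a background. The fit was also tried on data simulated with the spread of these arrays. Precision is limited by the number of arrays.

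The genes, lists and roles were chosen with earlier results of these data known. The genes given by name are the first 20 by the smaller of the day losses, those in a list of roles and the 3 on each side of the threshold. All others were named by role after their values were seen. Sort days come from the labels. Alternatives were the other table, quantile normalization, median centring, the mean of a gene's probesets, other thresholds and floors, blocks for sort day or replicate number, a filter on dim probesets and leaving out each array.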

Additional observations from a re-analysis of the deposited data

How the results depend on the processing

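The 92 genes became 57 with the mean of a gene's probesets, 209 with day differences at or below -0.6 and 47 at or below -1.0. They stayed within 1.5 times with the other table (92), quantile normalization (76), median centring (87) and floors of 5 (99) or 7 (71). Leaving out an array drops the conditions that need it, so counts ran from 94 without CD11A- replicate 1 to 698 without CD11A+ replicate 2, with 235 without CD11A+ replicate 1, 178 without CD11A- replicate 2 and 500 without CD11A- replicate 3.

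The median difference of -1.48 was -1.17 with the mean of a gene's probesets, and -1.78 to -1.14 without single arrays, the extremes being without CD11A+ replicate 2 and without CD11A+ replicate 1. limma called 0 probesets at first and under each alternative except without CD11A+ replicate 2, when it called 20. Replicate numbers cross the sort days, and deviations from the group means correlated at 0.12 for number 1 and at -0.56 for number 2, compared with 0.56 and 0.59 for arrays sorted on days A and B (with 2 CD11A+ arrays, their deviations are mirror images). With the replicate number as a block the median was -1.47 and 0 probesets were called (358 higher and 915 lower at an unadjusted p under 0.05). With sort day as a fixed block it was -1.43, and 1245 were higher and 1944 lower at that unadjusted p. With sort day as a random block these counts were 1661 and 2378, compared with 656 and 1261 without a block. Each day holds 1 pair, and these few arrays limit every value given.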
